A study of Mus musculus with 30 samples.

Results

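Neural stem and progenitor cells (NSPCs) given MS-275 were compared with NSPCs given crotonate, directly and without passing through the solvent control. The comparison takes 8 RNA libraries of the 30 samples in the series: 4 from cells treated for 24 h with 1 µM MS-275 and 4 from cells treated for 24 h with 10 mM crotonate, and it sets the abundance of each gene in the first group against that in the second. A further 4 libraries from cells given the solvent DMSO are shown beside them as values and enter no test here. All 12 cultures were NSPCs of C57BL/6 mice, isolated from the E13.5 forebrain, grown for a few passages in medium with EGF, FGF, B27 and N2, and treated before confluence. The design text calls the 4 cultures of a group biological replicates, and the p-values measure the spread between them. MS-275 is an inhibitor of class I histone deacetylases also known as entinostat, and crotonate is the salt of a short-chain fatty acid that cells turn into crotonyl-CoA. The doses of the agents differ and no solvent is named for crotonate, so a difference between the groups cannot be assigned to compound, dose or solvent, which cannot be told apart. NSPC cultures hold dividing progenitors without the vessels, blood and layered neurons of the embryo.

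Histone deacetylases remove acetyl groups, and the class I enzymes also remove crotonyl groups, from lysines of histone tails, mostly as parts of corepressor complexes. MS-275 blocks class I enzymes themselves, whereas crotonate raises the supply of the acyl-CoA from which acyltransferases crotonylate histones. Inhibitors of deacetylases are known to slow the cell cycle and to raise silent genes in many cell types, and neural progenitors treated with them have been known to turn to neuronal genes. The comparison asks which genes separate both kinds of agent in the same cells.

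The values are TPM, an abundance scaled for transcript length and library depth. A gene was tested when 4 or more of the 8 libraries held it at 1 TPM or more, which left 14523 of the 53974 genes in the table. At the edge of this filter, 423 tested genes reached 1 TPM in exactly 4 libraries and 420 untested genes in exactly 3. Of the tested genes 79 were at or above 1 TPM in every MS-275 library and in no crotonate library, and 26 in every crotonate library and in no MS-275 library. Differences below are MS-275 minus crotonate on the log2(TPM + 1) scale, which understates the change of low genes. "Higher" and "lower" calls mean an adjusted p under 0.05 in limma. The 4 values given for a group are replicates 1 to 4 of a group, and a value after ± is the SD of 4 libraries.

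With MS-275, 2885 genes (19.9%) were higher than with crotonate and 3975 (27.4%) were lower, so that 47.2% of the genes tested were called and 7663 were not. These counts leave out the pairing by replicate number. With that number as a block, 3000 genes were higher and 4048 lower. Most differences were small. The median over all tested genes was −0.04, and the differences ran from −4.28 for the pseudogene Rpl14-ps1 to 3.19 for 1810049J17Rik, gene models outside the rule for named genes whose groups overlapped. The central mass, without the outer 5% at each end, lay between −0.63 and 0.69. At least 2-fold differences were called for 237 genes in the higher direction (1.63%) and 128 in the lower direction (0.881%). In 6414 genes (44.2%) the 4 MS-275 values lay entirely to one side of the 4 crotonate values, and 6071 of these were called. Both kinds of call were more frequent at high abundance: 37.6% of genes at 100 TPM or more were lower and 26.1% higher, against 6.4% lower and 14.0% higher among genes under 2 TPM. The counts of list members below are to be read against 19.9% higher and 27.4% lower, and a list near these shares shows nothing about its members. The numbers of genes reaching 1 TPM were 14565 to 14854 with MS-275, 14388 to 14595 with crotonate and 13444 to 13696 with DMSO. The first principal component of the 8 libraries, with 48.7% of the variance, separated MS-275 from crotonate.

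**Figure D1:**
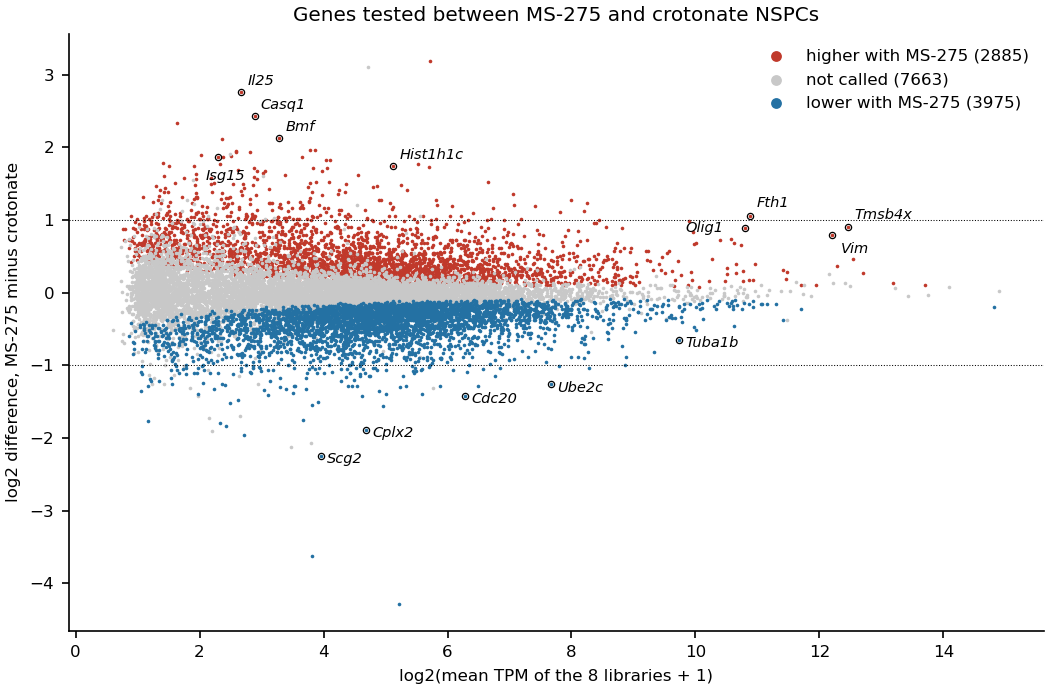
Each point is 1 of 14523 tested genes, with log2(mean TPM of the 8 libraries + 1) on the x axis and the log2 difference of MS-275 minus crotonate on the y axis. The 2885 genes called higher with MS-275 are red, the 3975 called lower are blue and the 7663 not called are grey, and the dotted lines mark 2-fold differences.

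Relative to DMSO, the genes that were higher with MS-275 than with crotonate had a median difference of 0.71 for MS-275 minus DMSO and 0.22 for crotonate minus DMSO. For the genes lower with MS-275 these medians were −0.39 and −0.04, and for all tested genes both were 0.09. The genes at least 2-fold higher had medians of 1.74 for MS-275 minus DMSO and 0.47 for crotonate minus DMSO, and those at least 2-fold lower had −1.35 and −0.14. These medians share the DMSO libraries and were taken over genes chosen from the same MS-275 and crotonate values, so they are given as a description.

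The genes that led each direction, by size of difference or by abundance, were taken only from genes whose groups did not overlap. Their lack of overlap was thus set by the rule, beside 44.2% of all tested genes without overlap. The genes that led the higher direction were of low abundance in DMSO-treated cells. Il25, a cytokine of immune responses at mucosal surfaces (chromosome 14, 54932695 to 54935837), had 9.81, 10.5, 9.47 and 10.6 TPM with MS-275, against 0.778, 0.417, 0.814 and 0.596 TPM with crotonate. All 4 MS-275 libraries were far above every crotonate library, with a log2 difference of 2.76 (SE 0.11, adjusted p = 1.1e-06), and the DMSO mean was 1.08 TPM. Casq1, a calcium-storing protein of skeletal muscle (chromosome 1, 172209894 to 172219895), had 10.8, 13.0, 11.9 and 10.4 TPM with MS-275 and 1.46, 1.08, 1.54 and 1.21 TPM with crotonate, without overlap (2.43, SE 0.11, adjusted p = 1.2e-06). Bmf, a member of the BCL2 family that promotes cell death (chromosome 2, 118528757 to 118549686), had 15, 15.8, 15.4 and 13.2 TPM with MS-275 and 1.92, 4.45, 2.33 and 2.23 TPM with crotonate. The second crotonate library was the highest of its group for Bmf and still below all MS-275 libraries (2.13, SE 0.18, adjusted p = 2.4e-05).

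The other leading genes of the higher direction came from muscle, immune, vesicle and signalling functions. Des, the muscle intermediate filament desmin, averaged 10.2 ± 1.45 TPM with MS-275 and 1.94 ± 0.397 TPM with crotonate. Camk2a, the alpha subunit of a calcium-dependent kinase of neurons, averaged 20.9 ± 2.71 and 4.62 ± 0.595 TPM in the same order. Lrrc32, which anchors latent TGF-beta at the cell surface, averaged 22 ± 1.25 TPM with MS-275 and 4.95 ± 0.831 TPM with crotonate. Among cell-surface proteins, Cd40, a costimulatory receptor, averaged 25.9 ± 3.89 TPM with MS-275 and 6.67 ± 1.48 TPM with crotonate, and Cd248, endosialin, 24.7 ± 2.38 and 6.24 ± 0.56 TPM. Both were lower still with DMSO, at 1.76 and 3.75 TPM. Rgs8, a regulator of G-protein signalling, was 4.32-fold higher in mean TPM, Tgm2, a transglutaminase, 5.89-fold, and Ttc9b 5.76-fold. Ecrg4, the precursor of secreted augurin, varied with MS-275 between 5.69 and 10.9 TPM, above 0.679 to 2.07 TPM with crotonate. Vsir, an immune checkpoint receptor, and Rab37, a small GTPase of vesicle traffic, were 7.5-fold and 5.51-fold higher. Vsir lies within Cdh23 and Rab37 overlaps Cd300lf by gene position, and the library kit does not mark strand. Reads from a shared stretch could thus be given to either gene, and the overlap of exons was not examined.

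A different set of genes led by abundance. Tmsb4x, thymosin beta, which binds actin monomers, had 7220, 7440, 7460 and 7330 TPM with MS-275, against 3480, 3880, 3930 and 4390 TPM with crotonate. Vim, the intermediate filament of radial glia (chromosome 2, 13574311 to 13582826), had 5900, 5980, 6160 and 5840 TPM with MS-275 and 3250, 3720, 3560 and 3310 TPM with crotonate. Fth1, the heavy chain of the iron store ferritin, had 2630, 2450, 2720 and 2380 TPM with MS-275 and 1270, 1170, 1270 and 1180 TPM with crotonate. The log2 differences of the 3 genes were 0.91 (SE 0.06), 0.79 (SE 0.04) and 1.06 (SE 0.05). Their DMSO means of 4430, 3670 and 1300 TPM were close to the crotonate values. Olig1, a transcription factor of the oligodendrocyte lineage, was 1.84-fold higher, at 2300 ± 116 TPM with MS-275 and 1250 ± 106 TPM with crotonate. Cd81, a tetraspanin, rose 1.97-fold, Pea15a, an astrocyte phosphoprotein, 1.79-fold, Scd2, a fatty acid desaturase, 1.68-fold, and Txn1, thioredoxin, 1.66-fold. Igfbp2, which binds insulin-like growth factors, and Serpine2, a secreted protease inhibitor, rose 1.6-fold and 1.57-fold. Tmsb4x, Fth1 and Txn1 have near-identical copies in the mouse genome, among which reads can be split in unknown ways.

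Of the genes lower with MS-275, Scg2, which encodes the secretory granule protein secretogranin (chromosome 1, 79434366 to 79440026), led. It had 3.75, 5.69, 4.74 and 3.51 TPM with MS-275 and 18.4, 28.2, 26.1 and 26.1 TPM with crotonate. The log2 difference was −2.25 (SE 0.16, adjusted p = 9.3e-06), and the DMSO mean of 4.16 TPM lay within the MS-275 values. Cplx2, a complexin that controls vesicle fusion at synapses (chromosome 13, 54301964 to 54383923), had 10.3, 10.2, 11.3 and 8.15 TPM with MS-275 and 38.0, 43.9, 42.9 and 33.7 TPM with crotonate. For this gene it was the crotonate group that lay near the DMSO mean of 32.3 TPM (−1.89, SE 0.11, adjusted p = 4e-06). The synaptic scaffold genes Anks1b and Begain, the lectin-like gene Clec2l and the imprinted gene Peg12 were also among the leading 15. Anks1b averaged 14.8 ± 2.79 TPM with MS-275 and 45.4 ± 7.09 TPM with crotonate, and Peg12 15.8 ± 1.72 and 41.8 ± 2.16 TPM.

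Other leading genes of this direction act in division or DNA repair. Spc24, a kinetochore protein, averaged 16.8 ± 2.48 TPM with MS-275 and 45.9 ± 5.67 TPM with crotonate. Neil3, a DNA glycosylase, had 0.307 of its crotonate level with MS-275, Cep128, a protein of the centriole, 0.314, Ankle1, a nuclease, 0.347, and Pif1, a DNA helicase, 0.366. Parpbp, which restrains recombination, had 0.339 of its crotonate level, and Hirip3, a partner of the histone chaperone HIRA, 0.373. Parpbp overlaps Pmch and Hirip3 overlaps Ino80e in the annotation. Among abundant genes, Hmgn2, which binds nucleosomes, averaged 309 ± 14.1 TPM with MS-275 and 621 ± 50.4 TPM with crotonate, and Hmgb1, a DNA-bending chromatin protein, 466 ± 36.0 and 817 ± 37.5 TPM. Cdk2ap1, a subunit of the NuRD corepressor complex, fell to 0.487 of its crotonate level, Rbm3, a cold-induced RNA-binding protein, to 0.545, Tuba1b, a tubulin, to 0.639, Set, a histone chaperone, to 0.64, Selenoh, a selenoprotein, to 0.647, and Camk2b, the beta subunit of the kinase that Camk2a belongs to, to 0.57. Camk2a and Camk2b thus moved in opposite directions. Hmgn2, Hmgb1, Set and Tuba1b have near-identical copies and their values are uncertain to that extent.

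**Figure D2:**
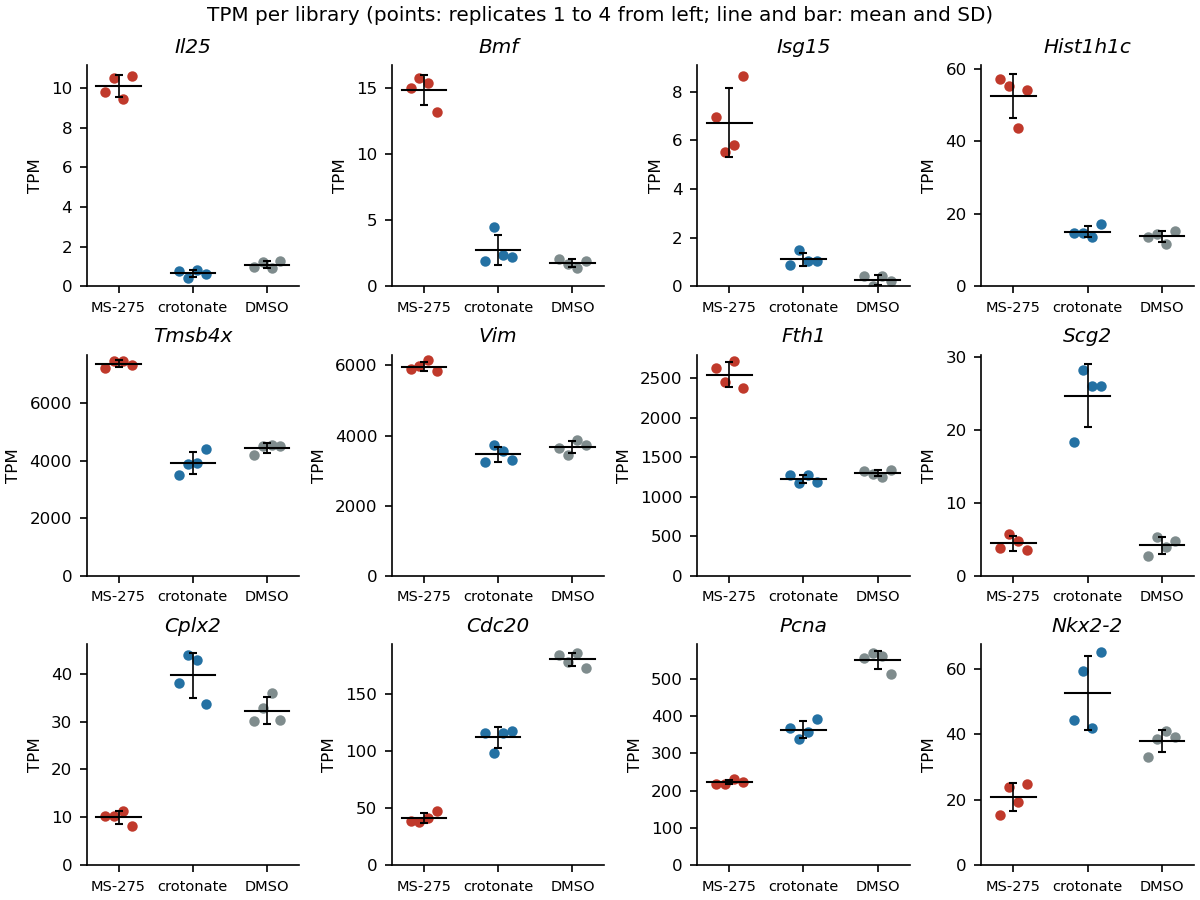
TPM of 12 genes in each library, with MS-275 in red, crotonate in blue and DMSO in grey; points are replicates 1 to 4 from left, the line is the mean and the bar the SD of 4 libraries. Il25, Bmf, Isg15, Hist1h1c, Tmsb4x, Vim and Fth1 are higher with MS-275 than with crotonate, and Scg2, Cplx2, Cdc20, Pcna and Nkx2-2 are lower. The 2 groups do not overlap in any of the 12, which the naming rule required of all but Hist1h1c and Nkx2-2.

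In genes of cell division the calls went one way. All 32 tested genes of G2/M and mitosis were lower with MS-275, against 27.4% of all tested genes, and the groups overlapped in none of the 32, beside 44.2% of all tested genes without overlap. Their median difference was −0.90 and their range −1.42 to −0.41, beside −0.04 over all tested genes. The summed abundance of the list was 1420 to 1630 TPM with MS-275, 2570 to 2990 TPM with crotonate and 4160 to 4410 TPM with DMSO. Cdc20, which activates the anaphase-promoting complex (chromosome 4, 118432901 to 118437343), had 38.7, 38.1, 41.4 and 47.5 TPM with MS-275 and 116, 98.2, 116 and 118 TPM with crotonate (−1.42, SE 0.08, adjusted p = 4.1e-06), and a DMSO mean of 180 TPM. Elovl1 overlaps Cdc20 by gene position, and whether the 2 genes share reads was not tested. Cenpa, the histone H3 variant of centromeres (chromosome 5, 30666877 to 30674837), had 46.9, 52.4, 53.8 and 52.9 TPM with MS-275 and 133, 116, 125 and 135 TPM with crotonate (−1.29, SE 0.06, adjusted p = 1.7e-06). In both genes every MS-275 library was below every crotonate library by more than the range within either group. Plk1, a mitotic kinase, averaged 33.4 TPM with MS-275 and 82.7 TPM with crotonate, Ccnb1, cyclin B, 60.9 and 127 TPM, Ube2c, a ubiquitin-conjugating enzyme of mitosis, 119 and 286 TPM, and Mki67, the proliferation marker, 62.9 and 102 TPM. The smallest difference of the list was that of Top2a, a topoisomerase, at 160 TPM with MS-275 and 213 TPM with crotonate. In bulk RNA, fewer cells in a phase or of a type and less RNA per cell cannot be told apart.

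Promoters of the list were searched because genes of this phase are known to be controlled through 2 short elements, the CCAAT box bound by NF-Y and the cell cycle homology region with the core TTTGAA. RefSeq promoters (GRCm38.p6, 250 bases before to 50 after a start) were found for 26 of the 32 genes, 28 promoters in all. CCAAT, on either strand, was in 24 of the 28 (85.7%), in 37.4% of all 32851 promoters and in 37.9% of those of tested genes. TTTGAA was in 22 of the 28 (78.6%), in 17.9% of all promoters and in 11.8% of the 13785 promoters of tested genes. The promoters of Cdc20 (chr4:118437294-118437593, minus strand) and Cenpa (chr5:30666636-30666935, plus strand) are shown because the naming rule takes both genes from this list. Capitals mark CCAAT, its reverse complement ATTGG and TTTGAA, and no match shares bases with another in either stretch.
Cdc20: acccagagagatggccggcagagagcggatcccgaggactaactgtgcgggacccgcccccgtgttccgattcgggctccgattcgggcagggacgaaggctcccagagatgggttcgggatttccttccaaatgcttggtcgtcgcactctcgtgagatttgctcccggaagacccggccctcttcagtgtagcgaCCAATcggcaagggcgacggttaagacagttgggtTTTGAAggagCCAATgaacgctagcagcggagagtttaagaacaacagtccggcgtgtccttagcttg
Cenpa: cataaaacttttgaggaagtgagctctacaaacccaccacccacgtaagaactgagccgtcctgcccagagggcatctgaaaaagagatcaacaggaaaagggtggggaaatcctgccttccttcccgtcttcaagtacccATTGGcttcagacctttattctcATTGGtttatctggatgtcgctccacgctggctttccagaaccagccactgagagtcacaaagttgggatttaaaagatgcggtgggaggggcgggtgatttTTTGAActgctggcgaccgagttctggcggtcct
The Cdc20 promoter holds CCAAT on both sides of TTTGAA, and the Cenpa promoter holds ATTGG upstream and TTTGAA near its end. A match is a description of the letters and not evidence of a bound factor.

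DNA replication genes were lower as well. Of 30 tested genes of G1/S and DNA replication, 29 were lower with MS-275 and none was higher, with a median of −0.78, beside 27.4% lower and 19.9% higher of all tested genes. The single gene not called was E2f1, a transcription factor of S phase entry, at 14.4 TPM with MS-275 and 16.7 TPM with crotonate. Pcna, the sliding clamp of DNA polymerases (chromosome 2, 132249286 to 132253180), had 217, 219, 230 and 223 TPM with MS-275 and 368, 338, 358 and 391 TPM with crotonate, without overlap (−0.70, SE 0.05, adjusted p = 6e-06), beside a DMSO mean of 550 TPM. Mcm4, a subunit of the replicative helicase, averaged 40.2 ± 1.16 TPM with MS-275 and 76.0 ± 2.86 TPM with crotonate. For Lig1, the ligase that joins new DNA, the means were 47.2 ± 1.28 and 84.9 ± 2.51 TPM. Cdc45, a component of the active helicase, had the largest difference of the list, −1.20. Summed over the list, abundance was 1150 to 1240 TPM with MS-275, 1960 to 2170 TPM with crotonate and 2840 to 3060 TPM with DMSO. Motifs of E2F were found in few of the 29 matched promoters: TTTCCCGC in 4 (13.8%, beside 1.07% of all promoters and 1.96% of those of tested genes) and TTTGGCGC in 5 (17.2%, beside 0.514% and 0.914%), each counted on both strands.

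**Figure D3:**
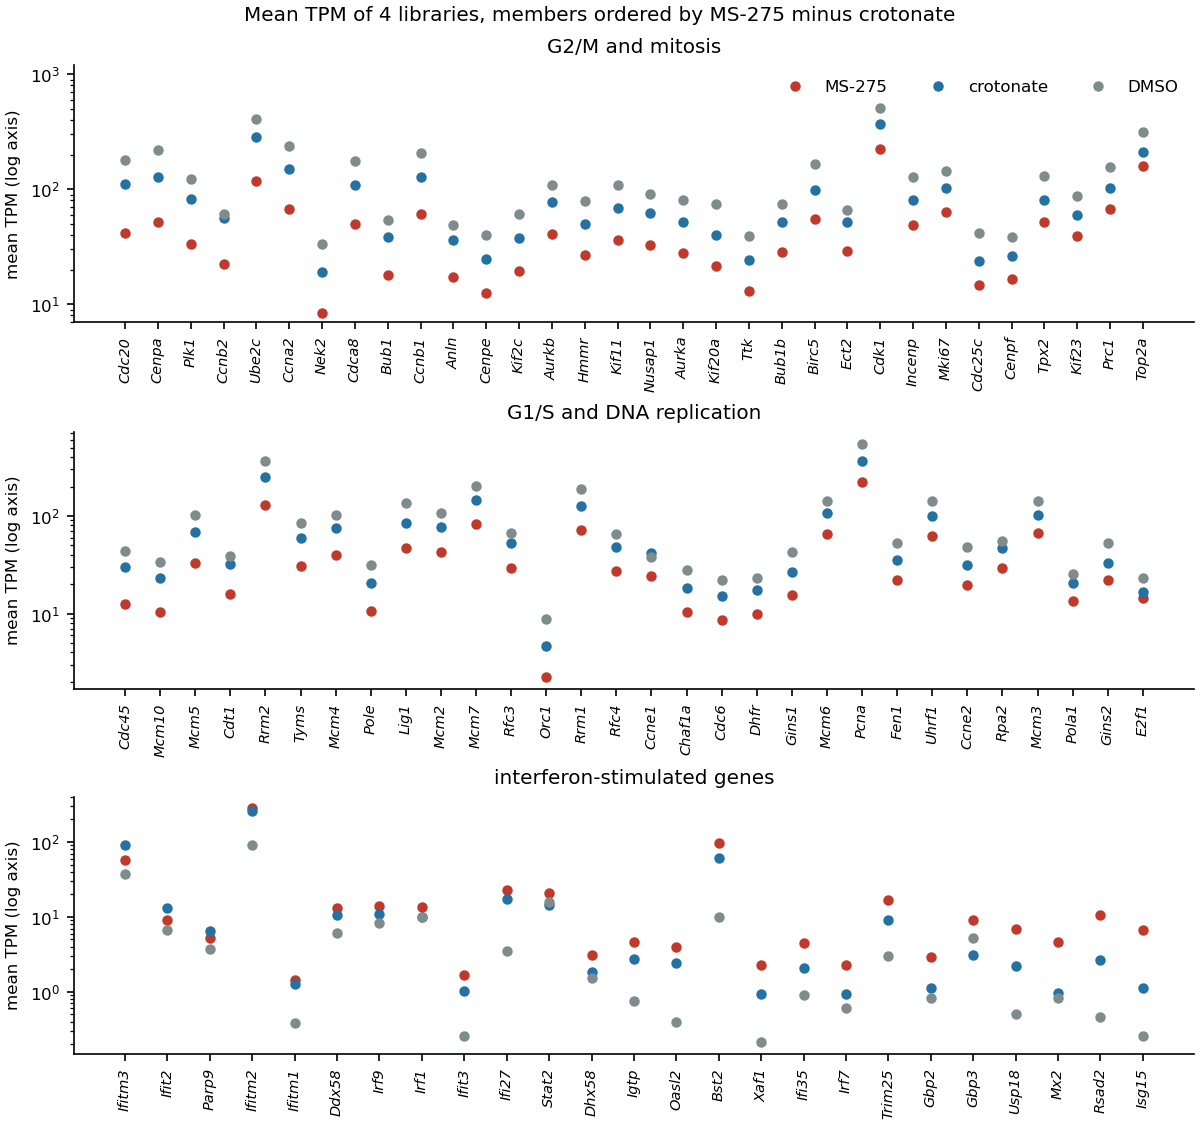
Mean TPM of 4 libraries on a log axis for tested genes of 3 lists (25 of the 26 interferon-stimulated genes are drawn), with MS-275 in red, crotonate in blue and DMSO in grey, ordered by the difference of MS-275 minus crotonate. In the mitosis list all 32 red points lie below the blue ones, in the replication list 29 of 30 genes were called lower, and in the interferon list 18 of 26 were called higher.

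Genes of homologous recombination and the Fanconi pathway, which repair breaks and crosslinks, were lower in 14 of 20 cases and higher in none (median −0.58), beside 27.4% lower of all tested genes. Rad54l, an ATPase of recombination, averaged 9.64 ± 0.295 TPM with MS-275 and 16.9 ± 0.409 TPM with crotonate. Rad52, Xrcc3 and Brca2, which act in the same pathway, were not called. Of 9 genes of the G1 cyclins, their kinases and the retinoblastoma family, 5 were lower and 3 higher. Rbl1, a retinoblastoma-like repressor, averaged 13.4 ± 0.532 TPM with MS-275 and 25.4 ± 0.808 TPM with crotonate, and the kinase Cdk4, which overlaps Tspan31, 236 ± 10.4 and 325 ± 9.88 TPM. Rb1 itself was higher, at 50.4 ± 3.5 TPM with MS-275 and 37.7 ± 1.34 TPM with crotonate. Leaving out MS-275 replicate 1 reduced the 5 lower calls of this list to 3, and leaving out MS-275 replicate 3, crotonate replicate 2 or crotonate replicate 4 reduced the 3 higher calls to 1.

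None of the 7 inhibitors of cyclin-dependent kinases was higher with MS-275 than with crotonate. Cdkn2c fell to 26.7 ± 1.56 TPM, against 51.9 ± 2.59 TPM with crotonate, and Cdkn2d to 33.7 ± 1.5 TPM, against 45.6 ± 5.1 TPM. Cdkn1a, which encodes p21, had 590, 569, 589 and 549 TPM with MS-275 and 605, 625, 629 and 603 TPM with crotonate, both above the DMSO mean of 480 TPM. Its difference of −0.10 was small and just past the threshold (adjusted p = 0.0325), and the call was lost with an adjusted p of 0.0705 without MS-275 replicate 2, 0.0821 without MS-275 replicate 4, 0.0783 without crotonate replicate 2 and 0.0868 without crotonate replicate 3. The list of p53 targets, which also holds Trp53 itself, was mixed, with 7 of 20 genes higher and 5 lower. Plk2, a polo-like kinase, averaged 353 ± 19.8 TPM with MS-275 and 196 ± 10.2 TPM with crotonate, and Trp53inp1, a stress-induced nuclear protein, 189 ± 2.7 and 128 ± 4.44 TPM. Gadd45a and Gadd45b, stress sensors, were higher with MS-275 (24.4 and 4.62 TPM, against 14.3 and 1.71 TPM with crotonate), whereas Gadd45g was lower (48.8 TPM, against 73.2 TPM with crotonate). Trp53, the gene of p53, is among the 5 lower genes, at 75.3 TPM with MS-275 and 88.4 TPM with crotonate.

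The class I deacetylase genes Hdac1, Hdac2, Hdac3 and Hdac8 differed in expression by 0.40 at most. Hdac1 (chromosome 4, 129516104 to 129542646) had 187, 192, 197 and 180 TPM with MS-275, against 138, 140, 146 and 147 TPM with crotonate and a DMSO mean of 113 TPM. It was higher without overlap, by 0.40 (SE 0.04, adjusted p = 5.2e-05). Hdac2 had 220, 228, 232 and 230 TPM with MS-275 and 265, 272, 259 and 236 TPM with crotonate, and was lower by −0.18 (SE 0.05, adjusted p = 0.0107). Hdac3 had 85.7, 99.2, 91.1 and 92.4 TPM with MS-275 and 81.3, 84.1, 79.6 and 78.7 TPM with crotonate, and was higher by 0.18 (SE 0.05, adjusted p = 0.0122). The groups did not overlap for either gene, but the margins were narrow, 232 against 236 TPM for Hdac2 and 85.7 against 84.1 TPM for Hdac3. Hdac8 was not called (13.3 ± 1.43 TPM with MS-275, 16.3 ± 2.23 TPM with crotonate, adjusted p = 0.0661), but passed with the replicate number as a block (adjusted p = 0.0157), without MS-275 replicate 2 (0.0359) and without crotonate replicate 3 (0.0189). Among all 24 tested class I deacetylases and corepressor subunits, 13 were lower and 5 higher. Mbd3, a subunit of the NuRD complex, averaged 83.8 ± 7.24 TPM with MS-275 and 150 ± 5.01 TPM with crotonate, and Sin3b, a scaffold of the Sin3 complex, 127 ± 6.23 and 187 ± 7.48 TPM.

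Other deacetylases moved in both directions, with 6 of 14 class II and IV enzymes and sirtuins higher and 3 lower. Hdac11, the class IV enzyme, had 18.3, 21.6, 22.1 and 19.7 TPM with MS-275 and 8.75, 11.2, 10.0 and 10.2 TPM with crotonate, a log2 difference of 0.96 (SE 0.09). Hdac9, a class II enzyme, averaged 2.79 ± 0.358 TPM with MS-275 and 5.48 ± 0.581 TPM with crotonate, and the cytoplasmic sirtuin Sirt2 130 ± 1.81 and 109 ± 2.58 TPM. Of 14 genes listed as lysine acyltransferases 8 were lower and 1 higher. The lower ones include Naa10 and Naa50, acetyltransferases of protein ends. Leaving out MS-275 replicate 2 reduced the lower calls to 5, and leaving out crotonate replicate 3 raised the higher calls to 2. Hat1, which acetylates new histones, averaged 70.3 ± 7.55 TPM with MS-275 and 108 ± 5.54 TPM with crotonate, and Naa10 71.5 ± 3.08 and 117 ± 3.66 TPM. The coactivator Ncoa3 was the higher member, at 24.8 ± 3.09 TPM with MS-275 and 18.1 ± 1.14 TPM with crotonate. Ep300 and Crebbp, which can also use crotonyl-CoA, were not called (25.4 and 10.1 TPM with MS-275, 30.6 and 11.6 TPM with crotonate). Readers of acylated lysine were lower in 9 of 17 cases and higher in 2, of which 1 remained a call without MS-275 replicate 2, MS-275 replicate 4 or crotonate replicate 1. Brd9, a bromodomain protein of a chromatin remodeller, averaged 40.5 ± 1.37 TPM with MS-275 and 55.0 ± 2.97 TPM with crotonate, and Baz2a, of a silencing complex, 31.2 ± 0.578 and 26.7 ± 0.905 TPM.

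Of 18 enzymes and carriers of crotonyl-CoA metabolism 5 were higher and 4 lower, near the 19.9% higher and 27.4% lower of all tested genes. With the replicate number as a block 7 were lower. The largest difference was that of Slc16a3, a lactate and short-chain acid transporter, at 23.8 TPM with MS-275 and 8.32 TPM with crotonate. Hadh, an enzyme of fatty acid oxidation, was higher, at 118 ± 3.15 TPM with MS-275 and 98.1 ± 3.92 TPM with crotonate. Acat1, which cleaves acetoacetyl-CoA, was lower, at 96.7 ± 1.23 TPM with MS-275 and 131 ± 8.91 TPM with crotonate. Echs1, which hydrates crotonyl-CoA, averaged 54.4 and 64.3 TPM in the same order. Of 9 tested genes known to rise with deacetylase inhibitors in human cells, 5 were higher with MS-275 than with crotonate and Cdkn1a was lower, a call that ended without MS-275 replicate 2 or 4 or crotonate replicate 2 or 3; with the replicate number as a block 2 were lower. Clu, the chaperone clusterin, had 161, 134, 132 and 126 TPM with MS-275 and 72.9, 73.8, 64.6 and 59.0 TPM with crotonate. Gsn, the actin-severing protein gelsolin, averaged 82.1 ± 3.25 TPM with MS-275 and 50.3 ± 4.54 TPM with crotonate. Both agents were above the DMSO means of 32.1 TPM for Clu and 12.5 TPM for Gsn.

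Replication-dependent histone genes gave few calls, and Hist1h1c had the largest difference among them. Hist1h1c, a linker histone, had 57.3, 55.4, 43.8 and 54.2 TPM with MS-275 against a mean of 15.1 ± 1.59 TPM with crotonate. The lowest MS-275 library, at 43.8 TPM, was above the highest crotonate library, at 17.3 TPM (1.74, SE 0.10, adjusted p = 3.7e-06), and the crotonate values were near the DMSO mean of 13.8 TPM. Hist1h2bc averaged 72.7 ± 10.4 TPM with MS-275 and 38.7 ± 3.67 TPM with crotonate. Hist1h2af was listed at 0, 0.752, 0 and 0 TPM with MS-275 and at 1.82, 2.21, 2.4 and 1.42 TPM with crotonate. In all, 3 of 13 tested replication-dependent histone genes were higher and 1 lower (2 without crotonate replicate 2); these genes share long identical stretches, and most of their RNA lacks a poly(A) tail. Variant histones were lower in 5 of 11 cases and higher in 2, beside 27.4% lower and 19.9% higher of all tested genes. The lower ones include Cenpa (−1.29), described above, and H2afy2 (−1.11). H2afy2, a macroH2A, averaged 26.8 ± 0.65 TPM with MS-275 and 58.9 ± 3.54 TPM with crotonate, and H3f3b, an H3.3 gene, 871 ± 24.4 and 706 ± 16.5 TPM.

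Of 12 genes of DNA methylation 6 were lower and 1 higher, and of 20 Polycomb genes 7 were lower, 2 higher and 11 not called, beside 27.4% lower and 19.9% higher of all tested genes; the Polycomb share of lower calls is near that background. Dnmt1, the maintenance methyltransferase, averaged 70.1 ± 5.04 TPM with MS-275 and 97.9 ± 1.98 TPM with crotonate. The methyltransferase Ezh2 and the ubiquitin ligase subunit Bmi1, of the 2 Polycomb complexes, averaged 79.3 ± 4.44 and 43.2 ± 2.26 TPM with MS-275 and 128 ± 4.92 and 71.3 ± 2.91 TPM with crotonate. Phc2, another Polycomb subunit, was higher, at 201 ± 8.04 TPM with MS-275 and 146 ± 5.03 TPM with crotonate. Without MS-275 replicate 3 the higher Polycomb calls were 4 in place of 2. The demethylase gene Tet3, the higher member of the methylation list, differed by 0.15 (adjusted p = 0.0413) and was not called in 6 of the 8 fits that left out a library, with adjusted p up to 0.1.

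Interferon-stimulated genes were the list with the highest median among those with at least 10 tested members. Of 26 tested genes, 18 were higher with MS-275 than with crotonate and 2 lower, with a median of 0.60, against 19.9% higher and a median of −0.04 over all tested genes. Isg15, a ubiquitin-like protein (chromosome 4, 156199424 to 156200818), had 6.95, 5.54, 5.79 and 8.66 TPM with MS-275 and 0.884, 1.49, 1.04 and 1.02 TPM with crotonate (1.87, SE 0.15, adjusted p = 1.9e-05). Rsad2, the antiviral enzyme viperin (chromosome 12, 26442743 to 26456452), had 11.1, 11.2, 8.68 and 11.3 TPM with MS-275 and 2.32, 2.52, 2.75 and 2.9 TPM with crotonate (1.67, SE 0.11, adjusted p = 5.8e-06). In both genes the groups were separate and the DMSO means, 0.26 and 0.466 TPM, lay below both. Trim25, a ubiquitin ligase of antiviral sensing, averaged 16.9 TPM with MS-275 and 8.97 TPM with crotonate, and Bst2, tetherin, 96.2 and 60.5 TPM. Going the other way, Ifit2, a binder of viral RNA, averaged 9.01 ± 0.62 TPM with MS-275 and 13.0 ± 0.649 TPM with crotonate, and Ifitm3, which blocks viral entry, 58.3 and 89.9 TPM. Markers of microglia and macrophages, which also use this pathway, summed to 56.9 to 67.4 TPM with MS-275 and 33.9 to 48.9 TPM with crotonate. The defining genes Csf1r, Cx3cr1, Aif1 and Ptprc were under 1 TPM in every group mean.

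The interferon response is known to act through the element with the core GAAANNGAA, so promoters of these genes were read for it. It was in 12 of 24 promoters (50.0%) of the 20 genes matched, on either strand, in 8.56% of all promoters and in 6.54% of those of tested genes. Isg15 (chr4:156200769-156201068, minus strand) and Rsad2 (chr12:26456403-26456702, minus strand) are the genes of the list that the naming rule takes in the higher direction. Capitals mark the motif or its reverse complement, and the 3 matches at Isg15 share bases with each other.
Isg15: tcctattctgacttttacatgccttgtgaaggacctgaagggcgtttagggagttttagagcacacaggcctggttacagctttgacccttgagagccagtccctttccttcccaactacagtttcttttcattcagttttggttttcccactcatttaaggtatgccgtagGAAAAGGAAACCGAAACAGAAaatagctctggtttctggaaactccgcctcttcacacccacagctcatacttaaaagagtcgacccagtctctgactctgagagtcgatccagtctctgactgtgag
Rsad2: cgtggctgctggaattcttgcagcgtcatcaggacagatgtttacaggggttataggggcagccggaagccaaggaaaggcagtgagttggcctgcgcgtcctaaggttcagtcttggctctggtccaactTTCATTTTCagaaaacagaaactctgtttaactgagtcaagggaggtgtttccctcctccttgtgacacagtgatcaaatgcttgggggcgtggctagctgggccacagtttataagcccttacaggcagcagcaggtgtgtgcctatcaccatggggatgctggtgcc
Isg15 thus holds a run of adjoining matches and Rsad2 a single one, on the reverse strand.

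Of 17 tested genes of MHC class I presentation none was higher with MS-275 than with crotonate, 6 were lower and 11 were not called (median −0.00), beside 19.9% higher and 27.4% lower of all tested genes; the lower count is near that background. B2m, the invariant chain of class I molecules, had 294, 320, 315 and 313 TPM with MS-275 and 375, 379, 381 and 371 TPM with crotonate, both far above the DMSO mean of 161 TPM, and H2-K1, a classical heavy chain, had 179 and 165 TPM without a call. B2m overlaps Patl2 in the annotation, and genes of the H2-Q family share sequence. Leaving out MS-275 replicate 3 or 4 or crotonate replicate 2 or 3, or taking the replicate number as a block, gave 1 higher call. Of 11 MHC class II genes 3 were tested. H2-Ab1, a class II chain, averaged 26.1 TPM with MS-275 and 27 TPM with crotonate, and H2-DMa, which loads peptides, 26.0 ± 1.28 and 17.7 ± 2.21 TPM; the DMSO means were 1.34 and 3.56 TPM. H2-DMa overlaps Brd2. Cd74, the class II chaperone, was under 0.05 TPM in each group mean.

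The progenitor markers Sox2, Nes and Pax6 were present in all 8 libraries. Sox2 had 276, 281, 247 and 276 TPM with MS-275 and 295, 293, 271 and 288 TPM with crotonate, with overlap between the groups and no call (−0.09, adjusted p = 0.161); with the replicate number as a block it passed (adjusted p = 0.043). Nes, the intermediate filament nestin, averaged 254 ± 20.4 TPM with MS-275 and 248 ± 25.6 TPM with crotonate (adjusted p = 0.736), beside 367 TPM with DMSO. Pax6, a transcription factor of dorsal progenitors, averaged 15.5 ± 3.22 TPM with MS-275 and 20.3 ± 2.6 TPM with crotonate (adjusted p = 0.0515), and passed with the replicate number as a block (0.0317) and without MS-275 replicate 4 (0.0165). Of 24 tested markers of neural stem cells or radial glia, 9 were higher and 7 lower, beside 19.9% higher and 27.4% lower of all tested genes. Tnc, the matrix protein tenascin C, had 455, 502, 480 and 533 TPM with MS-275 and 242, 280, 264 and 257 TPM with crotonate, and Fabp7, the lipid-binding protein of radial glia, averaged 6900 and 5000 TPM. Bcan, the proteoglycan brevican, had 186, 188, 183 and 210 TPM with MS-275 and 349, 367, 356 and 350 TPM with crotonate. Prom1, a membrane protein of progenitors, averaged 12.6 TPM with MS-275 and 27.1 TPM with crotonate. The summed abundance of the list, led by Fabp7 and Vim, was 15800 to 16400 TPM with MS-275, 11000 to 11900 TPM with crotonate and 11600 to 12100 TPM with DMSO.

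Notch1, Notch2 and Notch3 were higher, and Hes1, a target of the pathway, was lower. Among the other tested Hes and Hey genes, Hes6 was lower (−0.34), and Hes5 (−0.10) and Hey1 (−0.04) were not called. Nrarp, also of the Notch list, was not called (0.15). Notch1 averaged 94.5 ± 6.97 TPM with MS-275 and 57.1 ± 6.59 TPM with crotonate, and Notch2 14.8 ± 0.572 and 7.91 ± 0.492 TPM. Hes1, a repressor of neuronal fate that Notch activates, had 31.6, 34.5, 31.3 and 31.9 TPM with MS-275 and 57.1, 43.0, 39.4 and 50.4 TPM with crotonate. In the whole Notch list 8 of 17 genes were higher and 2 lower; leaving out MS-275 replicate 2, crotonate replicate 1 or crotonate replicate 3 left 5 higher calls. Of 7 tested proneural and basal progenitor factors 3 were lower and none higher. Eomes, Neurog2 and Tbr1, factors of cortical neurogenesis, were under 1 TPM in each group mean and were not tested.

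Regional transcription factors of the forebrain were lower with MS-275 in 8 of 14 dorsal and 3 of 10 ventral genes, and higher in none of either. Over all tested genes 27.4% were lower, so the ventral count is at the background. Nr2f2, a nuclear receptor, averaged 3.54 ± 0.338 TPM with MS-275 and 7.18 ± 0.911 TPM with crotonate. Among ventral genes, Gsx1, a factor of the ganglionic eminence, averaged 31.0 ± 8.06 TPM with MS-275 and 52.6 ± 5.72 TPM with crotonate. With median-of-ratios scaling 2 ventral genes were called higher, and without MS-275 replicate 3 or crotonate replicate 1, or with the replicate number as a block, there was 1. Cajal-Retzius and choroid plexus markers gave 1 call in 7 tested genes, Ebf3, whose groups overlapped (means 8.53 TPM with MS-275 and 11.5 TPM with crotonate). Without crotonate replicate 2 or 4 the lower calls among Cajal-Retzius markers were 2 and 3, and with the replicate number as a block 3. Msx1, a patterning factor in the choroid plexus list, had 1.78 ± 0.182 TPM with MS-275 and 2.04 ± 0.934 TPM with crotonate and was not called.

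Neuronal genes moved in both directions. Of 28 tested genes of neuronal differentiation 12 were higher and 7 lower (median 0.27). Ncam1, a neural adhesion molecule, had 125, 129, 125 and 130 TPM with MS-275 and 93.0, 89.0, 89.9 and 85.5 TPM with crotonate, and Elavl3, a neuronal RNA-binding protein, averaged 38.6 ± 0.778 and 26.6 ± 0.614 TPM. Its relative Elavl4 was lower, with 19.4, 21.5, 20.1 and 22.5 TPM with MS-275 and 38.6, 40.1, 37.6 and 37.2 TPM with crotonate. The neurofilament genes Nefl and Nefm were also lower (6.89 and 7.73 TPM with MS-275, 10.5 and 11.1 TPM with crotonate), and the tubulin Tubb3 was higher (29.0 TPM with MS-275, 16.1 TPM with crotonate). Of 27 tested genes of synaptic vesicles and release 11 were higher and 4 lower; without crotonate replicate 4 the higher calls were 7. Sv2a, a vesicle glycoprotein, had 65.5, 62.5, 61.2 and 50.2 TPM with MS-275 and 34.7, 34.4, 34.9 and 30.5 TPM with crotonate. Slc17a7, a vesicular glutamate transporter, averaged 4.02 ± 0.436 TPM with MS-275, 1.29 ± 0.232 TPM with crotonate and 0.138 TPM with DMSO. Both complexins of the list, Cplx1 and Cplx2, were lower with MS-275. Of 9 tested granin and prohormone genes, Chga, chromogranin A, was higher (10.9 ± 2.14 TPM with MS-275, 5.89 ± 1.17 TPM with crotonate), as was the processing enzyme Cpe by 0.20, Scg2 was lower and 6 were not called.

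Among 32 tested ion channels 10 were higher and 10 lower, beside 19.9% higher and 27.4% lower of all tested genes. Kcnj10, the potassium channel of astrocytes, had 57.5, 52.0, 47.0 and 49.0 TPM with MS-275 and 27.2, 26.8, 24.7 and 23.1 TPM with crotonate. Cacna1g, a calcium channel, averaged 53.2 TPM with MS-275 and 29.2 TPM with crotonate, beside 4.1 TPM with DMSO. The potassium channels Kcna1 and Kcnd2 were lower, at 2.0 ± 0.476 and 7.58 ± 0.265 TPM with MS-275 and 4.62 ± 0.456 and 11.4 ± 0.724 TPM with crotonate. Of 25 tested neurotransmitter receptors 12 were lower and 3 higher (median −0.21), and the lower ones included all 4 AMPA receptor subunits. Gria2, the subunit that sets calcium permeability, had 80.1, 78.9, 71.2 and 96.6 TPM with MS-275 and 134, 143, 144 and 153 TPM with crotonate (−0.81, SE 0.08, adjusted p = 7e-05). Gria1, Gria3 and Gria4 averaged 4.85, 21.6 and 3.49 TPM with MS-275 and 8.02, 26.5 and 7.2 TPM with crotonate, and the kainate receptor Grik1 4.75 ± 0.314 and 7.45 ± 0.431 TPM. Htr3a, a serotonin-gated channel, was higher, at 3.5 ± 0.554 TPM with MS-275 and 1.96 ± 0.0337 TPM with crotonate.

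Guidance and growth factor genes were mixed. Of 29 tested axon guidance genes 8 were higher and 7 lower, near the 19.9% higher and 27.4% lower of all tested genes. Unc5b, a netrin receptor, averaged 27.2 ± 0.846 TPM with MS-275 and 14.1 ± 0.442 TPM with crotonate, and the ephrin Efnb1 38.1 ± 1.91 and 21.8 ± 1.78 TPM. Ephb1, an ephrin receptor, was lower, at 12.5 ± 0.713 TPM with MS-275 and 20.2 ± 1.3 TPM with crotonate. Of 10 tested neurotrophin genes 4 were lower and 2 higher. Ntrk3, the receptor of neurotrophin-3, averaged 24.2 ± 2.83 TPM with MS-275 and 40.5 ± 1.96 TPM with crotonate, and Gfra1, a coreceptor of GDNF, 18 ± 1.31 and 29.7 ± 6.26 TPM. The DMSO mean of Ntrk3, 24.1 TPM, was near its MS-275 values. Sort1, a sorting receptor for neurotrophins, was higher, at 38.7 ± 1.2 TPM with MS-275 and 31.5 ± 1.04 TPM with crotonate.

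**Figure D4:**
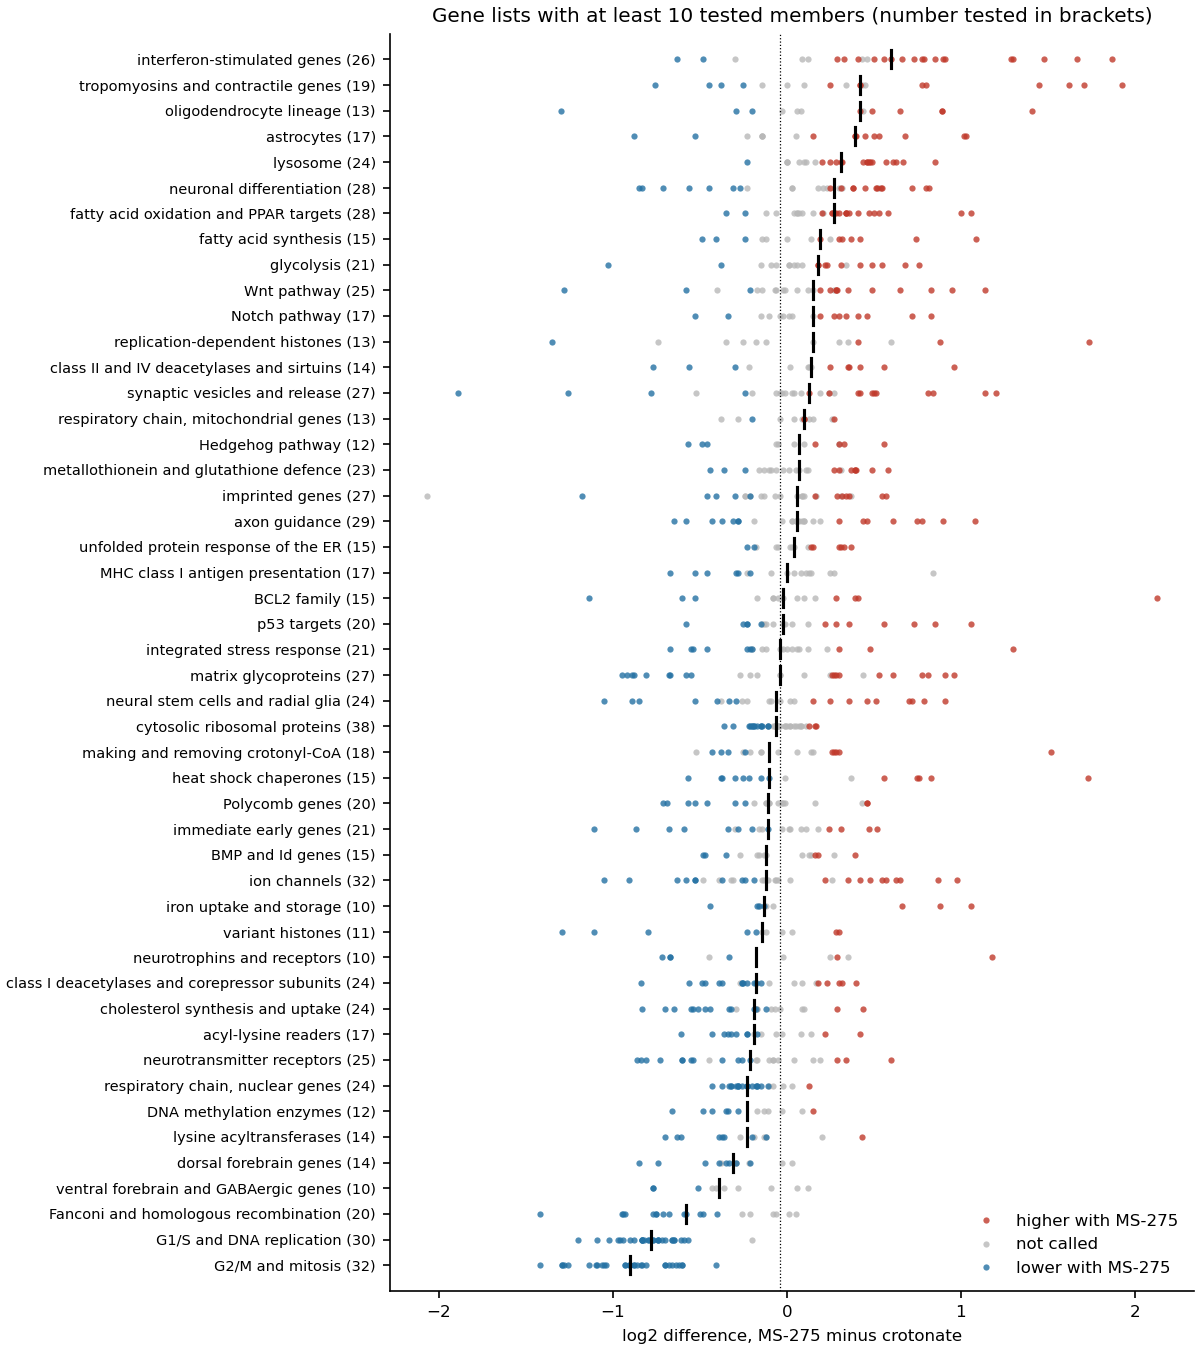
Log2 difference of MS-275 minus crotonate for every tested member of the gene lists with at least 10 tested members, ordered by median. Red points were called higher with MS-275, blue points lower and grey points not called; the black bar is the list median and the dotted line the median of all tested genes, −0.04. Medians run from 0.60 for interferon-stimulated genes to −0.90 for mitosis.

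Glial lists held more higher than lower calls. Of 17 tested astrocyte genes 10 were higher and 2 lower (median 0.39). S100b, a calcium-binding protein of astrocytes, had 14.2, 11.7, 12.6 and 12.5 TPM with MS-275 and 6.5, 5.46, 5.99 and 5.04 TPM with crotonate. Gja1, a gap junction protein, was lower, at 31.0 ± 3.44 TPM with MS-275 and 45.2 ± 4.42 TPM with crotonate, and Gfap, the astrocyte intermediate filament, was not called (−0.14, adjusted p = 0.782). Of 13 tested genes of the oligodendrocyte lineage 6 were higher and 3 lower (median 0.42). Cnp, a myelin enzyme, averaged 77.3 ± 6.06 TPM with MS-275 and 48.7 ± 1.12 TPM with crotonate, and Bcas1, a marker of early myelinating cells, 26.4 and 9.44 TPM. Nkx2-2, a transcription factor of oligodendrocyte progenitors, went the other way, with 15.4, 23.8, 19.4 and 24.7 TPM with MS-275 and 44.3, 59.4, 42.1 and 65.1 TPM with crotonate (−1.30, SE 0.17, adjusted p = 3e-04). It overlaps the antisense gene Nkx2-2os. Olig2 averaged 676 TPM with MS-275 and 648 TPM with crotonate and was not called, in contrast to its neighbour Olig1.

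Markers of other cell types were low, and 3 lists held members that rose. Of 13 endothelial markers 3 were tested and all were higher with MS-275. Egfl7, a secreted protein of vessels, had 42.6, 32.1, 32.2 and 31.7 TPM with MS-275 and 11.4, 12.1, 8.85 and 9.98 TPM with crotonate, Ly6c1 averaged 4.76 ± 1.45 and 0.719 ± 0.538 TPM, and Kdr, the VEGF receptor, 3.59 and 2.03 TPM. The list summed to 42.6 to 56.5 TPM with MS-275, 13.8 to 17.4 TPM with crotonate and 6.98 to 11.0 TPM with DMSO. The defining genes Cdh5, Pecam1, Cldn5 and Tie1 were at or under 0.3 TPM in each group mean, and 9 of the 13 were under 1 TPM in all 8 libraries. Of 10 erythroid markers none was tested and 5 were listed at 0 in all 8 libraries. Among 9 tested mesenchymal and pericyte genes 2 were higher and Prrx1, a mesenchymal transcription factor, was lower (28.9 ± 4.72 TPM with MS-275, 44.0 ± 4.94 TPM with crotonate). The higher calls of Col1a1, a collagen (5.14 ± 2.11 and 2.67 ± 0.774 TPM), and Tagln, an actin-binding protein (1.13 ± 0.0881 and 0.597 ± 0.185 TPM), were lost in 6 and 7 of the 8 fits that left out a library, with adjusted p up to 0.0936 and 0.0841. Tagln also lost its call with the replicate number as a block (0.0618), and it overlaps Pcsk7. Epithelial and germline lists had 3 tested members each. Tjp3, a tight junction protein, averaged 13.4 ± 2.4 TPM with MS-275 and 6.77 ± 0.696 TPM with crotonate, Anxa3, an annexin, 65.6 ± 5.56 and 51.7 ± 3.64 TPM, and Stag3, a meiotic cohesin that overlaps Gpc2, 14.6 ± 2.19 and 8.75 ± 1.49 TPM. The epithelial Cdh1 and Krt19 were under 0.05 TPM in each group mean. The part of such cells in the results above was not tested.

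Contractile genes were higher in 9 of 19 cases and lower in 4 (median 0.42). The muscle genes Tnnt1 and Tnni1, troponins, averaged 24.4 and 14.4 TPM with MS-275, against 6.76 and 4.34 TPM with crotonate, and Myl9, a myosin light chain, had 17.8, 21.3, 19.5 and 16.6 TPM, against 6.01, 6.45, 6.45 and 5.96 TPM. Csrp1, an actin-bundling LIM protein, averaged 189 ± 5.99 TPM with MS-275 and 110 ± 2.4 TPM with crotonate. Lower were the widely expressed Tpm4, a tropomyosin (145 ± 4.05 TPM with MS-275, 246 ± 5.16 TPM with crotonate), Tpm1, Myl6 and Tagln2. Matrix glycoprotein genes were divided, with 10 of 27 higher and 9 lower. Sparc, which binds collagen, had 394, 473, 436 and 475 TPM with MS-275 and 199, 238, 240 and 233 TPM with crotonate, and laminin Lamb2 averaged 48.0 and 26.7 TPM. The proteoglycans and tenascin R of neural matrix, Bcan, Vcan and Tnr, were all lower, at 192, 32.8 and 8.32 TPM with MS-275 and 355, 49.5 and 17.1 TPM with crotonate.

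Genes of fatty acid oxidation were higher in 17 of 28 cases and lower in 2 (median 0.27), against 19.9% higher and 27.4% lower of all tested genes. Ucp2, a carrier of the inner mitochondrial membrane, had 126, 155, 121 and 127 TPM with MS-275 and 62.3, 76.8, 59.8 and 63.2 TPM with crotonate, both far above the DMSO mean of 9.04 TPM (1.00, SE 0.10, adjusted p = 4.3e-05). Acadl, a dehydrogenase of long acyl-CoAs, had 406, 375, 393 and 387 TPM with MS-275 and 279, 274, 291 and 279 TPM with crotonate. Eci1, which moves double bonds of fatty acids, was lower, at 36.3 ± 2.54 TPM with MS-275 and 46.5 ± 1.79 TPM with crotonate. Of 15 fatty acid synthesis genes 7 were higher and 3 lower, among them Scd2 (1900 ± 147 TPM with MS-275, 1130 ± 56.6 TPM with crotonate) and Elovl5 (223 ± 8.63 and 173 ± 6.93 TPM), desaturase and elongase, against Elovl6, another elongase (44.0 ± 1.96 and 62.3 ± 2.82 TPM). Cholesterol synthesis and uptake went down more often than up, with 13 of 24 lower and 2 higher (median −0.19). Acat2, at the entry of the pathway, averaged 94.5 ± 4.48 TPM with MS-275 and 139 ± 11.3 TPM with crotonate, and Ebp, a sterol isomerase, 15.7 ± 2.73 and 28.5 ± 2.77 TPM. Hmgcs1, the synthase before the rate-limiting step, was higher, with 818, 584, 706 and 738 TPM with MS-275 and 547, 451, 532 and 558 TPM with crotonate. The sterol element TCACNCCAC was in 1 of 20 matched promoters (5.0%), beside 1.24% of all promoters and 1.14% of those of tested genes.

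Of 21 glycolytic genes 10 were higher and 2 lower (median 0.18). Slc2a1, a glucose transporter, had 40.1, 39.0, 41.2 and 36.6 TPM with MS-275 and 22.6, 19.3, 24.4 and 25.3 TPM with crotonate, and Pfkp, a phosphofructokinase, averaged 70.0 ± 3.38 and 52.0 ± 2.2 TPM. The hexokinase Hk2 was lower, at 4.19 ± 0.405 TPM with MS-275 and 9.59 ± 0.826 TPM with crotonate. Of 24 nuclear genes of the respiratory chain 19 were lower and 1 higher, with differences between −0.43 and 0.13 (median −0.23). Ndufs1, of complex I, had 99.0, 93.5, 98.4 and 95.1 TPM with MS-275 and 122, 127, 122 and 128 TPM with crotonate, and Atp5a1, of the ATP synthase, averaged 596 ± 19.9 and 726 ± 9.17 TPM. The higher call, Sdhc (0.13, adjusted p = 0.0211), was lost without MS-275 replicate 1 (adjusted p = 0.0567). Of 13 mitochondrial genes 3 were called higher and 1 lower, by 0.27 at most. Without MS-275 replicate 4, crotonate replicate 3 or crotonate replicate 4 none of these was called higher, and without MS-275 replicate 3 there was 1; with the replicate number as a block there were 5. Of 38 cytosolic ribosomal protein genes 14 were lower and 3 higher (7 with median-of-ratios scaling), with differences between −0.36 and 0.17; the lower count is near the 37.6% lower among all genes at 100 TPM or more. Rpl30 averaged 437 ± 19.8 TPM with MS-275 and 539 ± 9.97 TPM with crotonate, and Rplp0 1980 ± 55.3 and 1760 ± 26.6 TPM. Ribosomal genes have many pseudogenes that can take part of their reads.

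Lysosomal genes were higher in 16 of 24 cases and lower in 1 (median 0.31), where 19.9% of all tested genes were higher and 27.4% lower. Psap, the precursor of activators of lipid breakdown, had 701, 706, 676 and 714 TPM with MS-275 and 464, 483, 451 and 485 TPM with crotonate (0.57, SE 0.03, adjusted p = 4.4e-06). Grn, progranulin, averaged 124 ± 4.92 TPM with MS-275 and 68.3 ± 4.31 TPM with crotonate. Npc2, a cholesterol carrier, was the lower gene, at 82.4 ± 1.34 TPM with MS-275 and 96.7 ± 0.965 TPM with crotonate. In iron handling 3 of 10 genes were higher and 4 lower. Besides Fth1, the transferrin receptor Tfrc (58.1 TPM with MS-275, 31.3 TPM with crotonate, 86.3 TPM with DMSO) and transferrin Trf (91.9 and 57.7 TPM) were higher, and the ferritin light chain Ftl1 was lower (2150 ± 42.9 and 2400 ± 72.3 TPM).

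Of 15 heat shock chaperones 5 were higher and 8 lower. Hspb8, a small heat shock protein (chromosome 5, 116408491 to 116422864), had 85.9, 75.3, 77.9 and 77.3 TPM with MS-275 and 23.6, 22.8, 24.0 and 21.9 TPM with crotonate. Its difference of 1.73 (SE 0.05) came with an adjusted p of 5.4e-07, the smallest among the genes named here. Its partner Bag3 and the small heat shock genes Hspb1 and Cryab were also higher, at 23.4, 13.3 and 21.5 TPM with MS-275 and 13.4, 7.47 and 14.4 TPM with crotonate. Lower were folding chaperones of the cytosol and mitochondria, such as Hsph1 (57.1 ± 2.45 and 85.3 ± 3.13 TPM) and Hspd1, which overlaps Hspe1 (407 ± 12.7 and 528 ± 14.8 TPM). In the unfolded protein response of the endoplasmic reticulum 6 of 15 genes were higher and 2 lower, among them the chaperone Hspa5 (474 ± 26.2 TPM with MS-275, 377 ± 12.7 TPM with crotonate), its cofactor Sdf2l1 (39.8 ± 2.79 and 30.7 ± 2.01 TPM) and, in the lower direction, Dnajc3 (22.8 ± 0.91 and 27 ± 1.13 TPM). Leaving out any MS-275 library, or crotonate replicate 2 or 4, reduced the 2 lower calls to 1, as did the replicate number as a block. Of 21 integrated stress response genes 7 were lower and 3 higher. Slc7a1, an arginine transporter, averaged 19.5 ± 0.905 TPM with MS-275 and 31.6 ± 0.987 TPM with crotonate, the serine synthesis gene Psat1 153 ± 9.03 and 224 ± 6.41 TPM, and Pck2, of mitochondrial phosphoenolpyruvate synthesis, 21.0 ± 2.86 and 14.8 ± 0.862 TPM. In the metallothionein and glutathione list 8 of 23 were higher and 3 lower (5 lower with the block), with Nfe2l2, the regulator of antioxidant genes (196 ± 11.3 and 140 ± 4.41 TPM), and Gstm1, a glutathione transferase (464 ± 8.29 and 355 ± 4.77 TPM), against Gclc, which makes glutathione (44.0 ± 3.99 and 59.8 ± 1.71 TPM).

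Within the BCL2 family 4 of 15 tested genes were higher and 3 lower, near the 19.9% higher and 27.4% lower of all tested genes. Besides Bmf, the protective Bcl2l1 was higher, at 53.1 ± 5.19 TPM with MS-275 and 39.5 ± 2.18 TPM with crotonate. Bok, a relative of Bax, had 14.9, 18.5, 14.9 and 15.3 TPM with MS-275 and 30.5, 37.8, 38.5 and 38.2 TPM with crotonate, and was lower by −1.14 (SE 0.09, adjusted p = 2.1e-05). Immediate early genes were lower in 8 of 21 cases and higher in 4, near the 27.4% lower and 19.9% higher of all tested genes. Egr3 and Egr2, growth factor-induced transcription factors, averaged 3.55 ± 0.932 and 4.46 ± 0.457 TPM with MS-275, against 8.63 ± 0.473 and 8.98 ± 1.16 TPM with crotonate. Dusp6, a phosphatase of the ERK pathway, was higher, at 212 ± 16.2 TPM with MS-275 and 148 ± 7.48 TPM with crotonate, whereas Dusp1, another phosphatase, was lower (30.7 and 46.6 TPM).

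Signalling pathways each held members in both directions. Over all tested genes 19.9% were higher and 27.4% lower. The counts of BMP and Id genes and of imprinted genes below are near these shares. Of 25 Wnt genes 11 were higher and 3 lower, or 5 lower with the replicate number as a block. Sfrp2, a secreted Wnt inhibitor, lay between 11.5 and 13.9 TPM with MS-275 and between 30.1 and 33.4 TPM with crotonate, beside a mean of 12.4 TPM with DMSO (−1.28, SE 0.07, adjusted p = 4.1e-06). Dkk3, of the Dickkopf family, averaged 25.7 ± 1.92 TPM with MS-275 and 11.2 ± 2.11 TPM with crotonate, and the receptor Fzd5 14.3 ± 0.597 and 6.94 ± 0.0746 TPM. Of 12 Hedgehog genes 4 were higher and 3 lower; without MS-275 replicate 1, MS-275 replicate 3 or crotonate replicate 2 the higher calls were 2. The coreceptor Cdon averaged 77.0 ± 7.11 TPM with MS-275 and 52.2 ± 5.85 TPM with crotonate, the ligand Dhh 10.7 ± 0.419 and 8.36 ± 1.11 TPM, and the signal transducer Smo 29.4 ± 0.744 and 40.8 ± 1.7 TPM. Of 15 BMP and Id genes 3 were higher and 3 lower, with Id3 at 159 ± 23.7 TPM and Id2 at 133 ± 14.6 TPM with MS-275, against 121 ± 10.0 and 183 ± 15.2 TPM with crotonate; both encode inhibitors of bHLH factors. The BMP receptor Bmpr1b was lower (9.35 ± 1.07 and 12.1 ± 0.569 TPM). Of 27 imprinted genes, expressed from 1 parental allele, 7 were higher and 5 lower; the lower calls were 3 without MS-275 replicate 3 or 4 and 2 without crotonate replicate 2 or 3. Mest, which overlaps Copg2, averaged 904 ± 89.1 TPM with MS-275 and 609 ± 30.1 TPM with crotonate, Igf2r, the clearance receptor of IGF2, which overlaps Airn, 54.5 ± 4.98 and 36.8 ± 3.59 TPM, and Sgce, a sarcoglycan, 24.5 ± 1.07 and 32.9 ± 1.82 TPM. Dlk1, a Notch-like membrane protein, averaged 7.11 TPM with MS-275 and 17.2 TPM with crotonate.

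Chromatin immunoprecipitation with antibodies against acetylated (Kac) and crotonylated lysine (Kcr) was done with 1 library per antibody and treatment, and the deposited lists hold peak positions alone. No test between treatments is possible with them. The Kac lists held 7555 peaks with MS-275, 21616 with crotonate and 23427 with DMSO, and the Kcr lists 5845, 23301 and 17669. Shares of genes with a peak depend on these lengths, so lower shares in the MS-275 lists show no change at particular genes. The depth and yield of each precipitation are unknown, and their part in the lengths was not tested. Of the MS-275 peaks 64.8% of Kac and 62.9% of Kcr overlapped a crotonate peak by at least 1 base, and of the crotonate peaks 22.3% of Kac and 16.2% of Kcr overlapped an MS-275 peak. A gene was assigned a peak within 1 kb of either end, with RefSeq positions for 13596 of the tested genes (93.6%). Genes higher with MS-275 had a Kac peak in the MS-275 list in 20.7% of cases, in the crotonate list in 60.9% and in the DMSO list in 58.6%. For genes lower with MS-275 these shares were 19.3%, 67.4% and 74.9%, and for genes not called 16.9%, 60.0% and 63.1%. The Kcr shares were 19.8%, 66.4% and 50.3% for higher genes and 17.5%, 70.6% and 67.2% for lower genes. The shares depend on the window. For a window of 1 kb around annotated starts, chosen after seeing the data, the MS-275 Kac list marked 20.8% of higher and 21.5% of lower genes, the reverse order of the window used above, and within 5 kb of either end 29.6% and 24.7%. For genes at least 2-fold higher the Kac shares within 5 kb were 30.4% in the MS-275 list, 57.7% in the crotonate list and 47.1% in the DMSO list, against 18.5%, 40.5% and 29.5% within 1 kb. The classes differ in abundance, with median TPM of 21.6 for higher and 30.0 for lower genes, and the part of abundance in these shares was not tested.

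**Figure D5:**
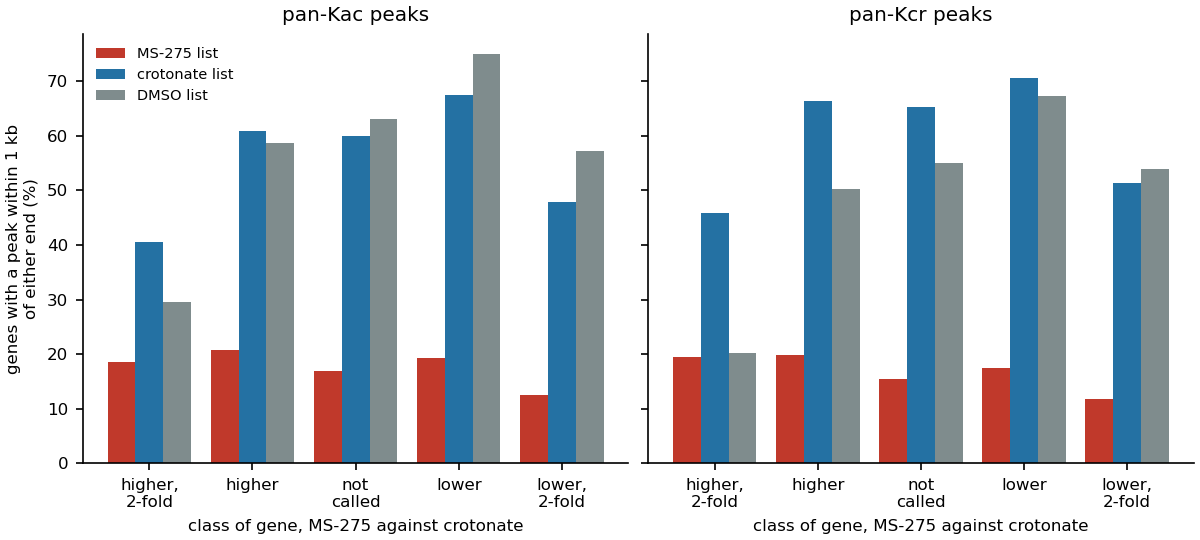
Share of genes, in percent, with a Kac peak (left) or a Kcr peak (right) within 1 kb of either end in the MS-275 (red), crotonate (blue) and DMSO (grey) lists, for classes of genes by the comparison of MS-275 with crotonate. There is 1 library per list, so bars have no error. In every class the MS-275 bar is the lowest, and the MS-275 lists also hold the fewest peaks. For genes at least 2-fold higher the Kac bars are 18.5%, 40.5% and 29.5%.

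Few genes had a peak in the MS-275 list and none in the crotonate list. They were 126 for Kac, of which 41.3% were higher and 15.1% lower with MS-275, and 133 for Kcr, of which 34.6% were higher and 15.8% lower. Genes with a Kac peak in both lists (2371) were higher in 22.3% and lower in 30.8% of cases, those with a peak in the crotonate list alone (6101) in 19.3% and 30.9%, and those in neither list (4998) in 20.9% and 25%. With Kcr, 2171 genes had a peak in both lists (23.4% higher, 30.4% lower), 6941 in the crotonate list alone (19.5% and 30.0%) and 4351 in neither (20.6% and 25.8%). Of the leading genes, Il25 had Kac and Kcr peaks in the crotonate and DMSO lists and none in the MS-275 lists. Cplx2 and Lrrc32 had Kac peaks in all 3 lists, Bmf, Des and Scg2 had no peak of either mark in any list, and Cdc20 had a peak in the DMSO Kac list alone.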

How the data were processed

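Per the labels' protocols, RNA of mouse NSPCs was isolated with Trizol and made into libraries with a kit that does not mark strand, and chromatin was precipitated with pan-Kac and pan-Kcr antibodies. The submitters' processing notes name Salmon 1.0.0, DESeq2 1.26.0, Bowtie2 2.3.5.1, MACS2 2.2.5 and GRCm38. The authors deposited their TPM values in 1 table; totals per library are 998182 to 999495 TPM, and without read counts the depth is unknown. The Kac and Kcr lists, as deposited by the authors, hold peak positions without scores or signal. One further sample column of the TPM table was not used.

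Samples were grouped by their titles. Values of genes that reached 1 TPM in 4 or more of the 8 libraries were taken as log2(TPM + 1) and compared with limma 3.58.1 (R 4.3.3, eBayes with trend, two-sided, Benjamini-Hochberg over all 14523 genes tested, threshold 0.05). The test was checked on simulated data. DMSO values enter no test except in the alternative fit of 12 libraries. The 62 gene lists are described by counts and medians, and their members and the comparison were chosen with earlier results of these data known. The text names the 15 genes per direction with the largest difference among called genes that have groups without overlap, a mean of 5 TPM or more in the higher group and no predicted gene name, the 10 most abundant per direction that differ at least 1.5-fold, up to 3 members of each list by adjusted p (the most abundant member where none was called), and the class I deacetylases and progenitor markers; other list members were named after their values were seen, and some genes that the rule takes are not reported here. Positions, overlaps with neighbouring genes and promoters are from RefSeq (GRCm38.p6). Peaks were compared with bedtools 2.31.1. Tables were made with pandas 2.3.3 and SciPy 1.17.1 under Python 3.11.15, and figures with matplotlib 3.10.9.

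To see whether replicate numbers pair samples, group means were subtracted. MS-275 and crotonate libraries with the same number correlated at 0.158 to 0.192 in 4 of 4 pairs, and those with other numbers at −0.144 to 0.0645. Xist was at 258 to 268 TPM in replicates 2 and 3 of both groups and under 1 TPM in replicates 1 and 4, so the numbers pair the samples. Calls and adjusted p-values in the text come from the fit without this pairing unless the block is named. The block was run as an alternative. The other alternatives were another pseudocount, 2 other filters, 2 other scalings, no trend, all 12 libraries in the fit, each library left out in turn, and other windows and overlaps for peaks.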

Additional observations from a re-analysis of the deposited data

Results flagged for a closer look

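Single libraries stood apart from the other 3 of their group in 23 of 408 groups of named genes (5.64%), by a gap test that chance alone passes in about 1 in 20 groups. Of these, 10 were MS-275 and 13 were crotonate libraries. Cpe and Bok had such a library in both groups.

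With MS-275, replicate 1 was above its group for Brd2 (120 TPM, others 112 to 113) and Egfl7 (42.6 TPM, others 31.7 to 32.2). Replicate 2 was above for Cpe (502 TPM, others 497 to 498), Bok (18.5 TPM, others 14.9 to 15.3) and Hist1h2af (0.752 TPM, others listed at 0), and below for Prrx1 (21.9 TPM, others 30.3 to 32). Replicate 3 was above for Plk2 (383 TPM, others 341 to 345) and below for Rsad2 (8.68 TPM, others 11.1 to 11.3) and Sox2 (247 TPM, others 276 to 281). Replicate 4 was below for Hsph1 (53.5 TPM, others 58.1 to 58.6).

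With crotonate, replicate 1 was below its group for Trp53inp1 (121 TPM, others 130 to 131), Sparc (199 TPM, others 233 to 240) and Bok (30.5 TPM, others 37.8 to 38.5). Replicate 2 was above for Olig1 (1410 TPM, others 1190 to 1200) and below for Cdc20 (98.2 TPM, others 116 to 118), Hat1 (99.3 TPM, others 110 to 111) and Rad54l (16.3 TPM, others 17.1 to 17.2). Replicate 3 was above for Spc24 (54.3 TPM, others 42.6 to 43.6). Replicate 4 was above for Dhh (10.0 TPM, others 7.69 to 7.94) and below for Sv2a (30.5 TPM, others 34.4 to 34.9), Cpe (394 TPM, others 445 to 454), Kcnd2 (10.3 TPM, others 11.6 to 11.8) and Hadh (92.2 TPM, others 99.5 to 101).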

How the results depend on the processing

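With the replicate number as a block, 3000 genes were higher and 4048 lower with MS-275, 242 and 133 of them at least 2-fold; among named genes the block changed the calls of Tagln, Hdac8, Sox2 and Pax6 alone, and among counts of list members those given with the block beside them. With 1 library left out, there were 2576 to 2707 higher and 3540 to 3743 lower genes, with 228 to 263 and 120 to 140 at least 2-fold. The number of genes at least 2-fold higher was 142 with a filter of a mean of at least 5 TPM, which tests fewer low genes, and 451 with a pseudocount of 0.1, with which 222 were at least 2-fold lower; a smaller pseudocount widens the differences of low genes. The other counts of genes stayed within 1.5 times the reported ones under all alternatives run. The share of higher among called genes was 42.1% as reported, 47.9% with median-of-ratios scaling and 48.1% with quantile normalization. Of 204 named genes, 8 lost their call under some alternative: Cdkn1a, Col1a1, Tagln, Sdhc, mt-Nd6, mt-Atp8, mt-Co1 and Tet3. The uncalled differences of Msx1 (−0.08, with −0.23 to 0.07 when 1 library was left out; 0.07 without crotonate replicate 1 and 0.03 without crotonate replicate 2) and Nes (0.04, with −0.01 to 0.09 when 1 library was left out; −0.01 without crotonate replicate 1 and −0.00 without crotonate replicate 4) changed sign. Of 122 counts of list members, 36 moved by over 1.5 times in at least 1 alternative, mostly counts of 5 or fewer; higher interferon-stimulated genes were 9 with the filter of 5 TPM, which leaves fewer to test. Of 28 alternative values of peak shares and overlaps, 26 moved beyond their counting interval. With an overlap of at least 50% of the shorter peak, 58.3% of MS-275 Kac peaks and 55.4% of MS-275 Kcr peaks overlapped crotonate peaks. Lists without scores allowed no stricter peak threshold. Depth is unknown, so genes near 1 TPM are the least certain.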
